A study of Mus musculus with 6 samples.

Results

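Conventional dendritic cells were described in mouse left quadriceps after removal of muscle, a defect known as volumetric muscle loss (VML). Cells were chosen by their transcripts, counted as unique molecular identifiers (UMIs). A barcode with at least 500 gene UMIs was kept if it held at least 5 UMIs of the MHC class II genes H2-Aa, H2-Ab1 and H2-Eb1 together and at least 2 of the 8 genes Cd209a, Flt3, Napsa, Itgb7, Irf8, Xcr1, Clec9a and Ccr7. It also had to hold at most 1 UMI of the complement genes C1qa, C1qb and C1qc together and at most 1 of the B cell genes Cd79a and Cd79b. This rule found 119 of 8427 barcodes: 52 in the critical library, 51 in the subcritical library and 16 in the uninjured library. All mice were male C57BL/6 wild types, 2 to 3 months old. The critical group had a 3 mm defect, the subcritical group a 2 mm defect and the uninjured group none, and the injured muscle was taken 7 days after surgery. Each group held 4 animals, whose cells were tagged with a hashtag per animal, pooled and run as 1 library with matched surface antibody counts.

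Conventional dendritic cells take up antigen in tissues and present it to T cells on MHC molecules. The cDC1 lineage depends on the transcription factors Irf8 and Batf3, carries the chemokine receptor XCR1 and the dead-cell receptor CLEC9A, and is known for presenting captured antigen on MHC class I. The cDC2 lineage carries CD172a (SIRPα) and lectins such as CD301b, and presents mainly to CD4 T cells. On maturation either lineage gains CCR7, the receptor that guides cells along lymphatics to lymph nodes, together with the actin-bundling protein fascin (Fscn1).

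The antibody panel is a readout that the rule did not use. Each antibody carries a DNA tag. The tags below belong to 6 of the 10 antibodies that passed in the comparison of dendritic cells with macrophages described further on. The other antibodies that passed, Gr-1 and CD39 among them, are not shown, so the 6 are not a ranking. Capitals mark the whole tag of 15 bases that is read. The 138 tags of the panel differed from each other at 4 bases or more.
CD24: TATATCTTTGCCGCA
CD103: TTCATTAGCCCGCTG
I-A/I-E: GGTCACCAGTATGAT
CD64: AGCAATTAACGGGAG
CD14: AACCAACAGTCACGT
CD11b: TGAAGGCTCATTTGT
CD24 is a small anchored glycoprotein that is abundant on cDC1, and CD103 (integrin αE) marks tissue cDC1. I-A/I-E is the MHC class II protein itself. CD64 is the high-affinity Fc receptor of macrophages, CD14 the lipopolysaccharide co-receptor of monocytes and macrophages, and CD11b the integrin αM of myeloid cells.

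The libraries held 7138662 gene UMIs in the critical group, 4954129 in the subcritical group and 5681346 in the uninjured group. Dendritic cells had a median of 1567.5 UMIs in the critical library, 1405 in the subcritical library and 3780 in the uninjured library, so that a gene was easier to detect in an uninjured cell. Hashtags placed 46, 47 and 11 of the critical, subcritical and uninjured dendritic cells in 1 animal. The libraries shared 10 to 16 barcodes in each pair, and 3 dendritic cells carried such a barcode. Of 15 macrophage genes, Folr2, Lyve1 and Mertk were at 0 in the dendritic cells of all 3 libraries. That list holds C1qa, C1qb and C1qc, which the rule limited in dendritic cells and the macrophage class below required, so part of the next contrast was fixed by the choice of cells. The summed macrophage list was at 630, 446 and 741 counts per 1000000 gene UMIs (CPM) in critical, subcritical and uninjured dendritic cells, against 40913, 45682 and 27206 CPM in the class II high macrophages of the same libraries. Those macrophages were cells with at least 5 UMIs of class II and at least 5 of C1q, and they numbered 387, 431 and 14.

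The selection values themselves were as follows, as a description. Napsa, an aspartic peptidase, was detected in 71.2%, 78.4% and 93.8% of critical, subcritical and uninjured dendritic cells. Irf8 was found in 50%, 54.9% and 56.3% of them, and Flt3, the growth factor receptor of the lineage, in 32.7%, 31.4% and 43.8%. In endothelial cells, which should lack these genes, the shares were at most 0.419% for Napsa, 3.79% for Irf8 and 0.21% for Flt3, at median depths of 1454, 1222 and 1985 UMIs in the same 3 libraries. The list of 10 dendritic cell markers, 5 of them in the rule, summed to 3357, 3451 and 3291 CPM in critical, subcritical and uninjured dendritic cells, against 458, 449 and 358 CPM in macrophages. The choice of both classes by genes fixed this contrast in part, and it is no independent check of the label. With only 2 of the 8 genes there were 30 critical, 28 subcritical and 4 uninjured dendritic cells, and 32, 37 and 3 cells with 1 of the genes stayed outside. A C1q UMI was present in 15, 9 and 0 of the dendritic cells, and 4, 0 and 0 cells with 2 or 3 such UMIs stayed outside. Class II lay far from its limit, with medians of 62, 48 and 106 UMIs.

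Dendritic cells made up 1.65% of critical barcodes (exact 95% interval 1.23 to 2.15), 1.76% of subcritical barcodes (1.31 to 2.30) and 0.729% of uninjured barcodes (0.417 to 1.18). These intervals cover counting error in 1 library each. Of Ptprc-positive barcodes, dendritic cells with a Ptprc UMI were 3.95%, 5.25% and 10.6% in the same order, with uninjured highest. Exactly 1 hashtag was called in 88.5%, 92.2% and 68.8% of critical, subcritical and uninjured dendritic cells, against 36.9%, 41.6% and 41.7% of all barcodes. This unequal tagging enters the shares by animal. By animal, the share of hashtagged cells was 8.03%, 3.70%, 4.12% and 2.63% in the 4 critical animals, 5.67%, 1.53%, 5.91% and 3.71% in the 4 subcritical animals and 2.44%, 0.708%, 1.42% and 2.38% in the 4 uninjured animals. Every critical animal lay above every uninjured one, while critical and subcritical animals overlapped and 1 subcritical animal fell within the uninjured range. The mean was 4.62% ± 2.36 in critical and 1.74% ± 0.83 in uninjured animals (SD, n = 4 each; exact two-sided permutation p = 0.0286, the smallest these groups can give; 0.0857 after Benjamini-Hochberg adjustment over the 9 share tests). It was 4.21% ± 2.04 in subcritical animals, which gave an exact permutation p of 0.0857 against uninjured animals (adjusted 0.193). Critical and subcritical animals differed by 0.41 percentage points, within the spread between animals (exact permutation p = 0.83). No share test passed after adjustment. A smaller share of these cells and fewer cells recovered by digestion cannot be told apart.

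**Figure D1:**
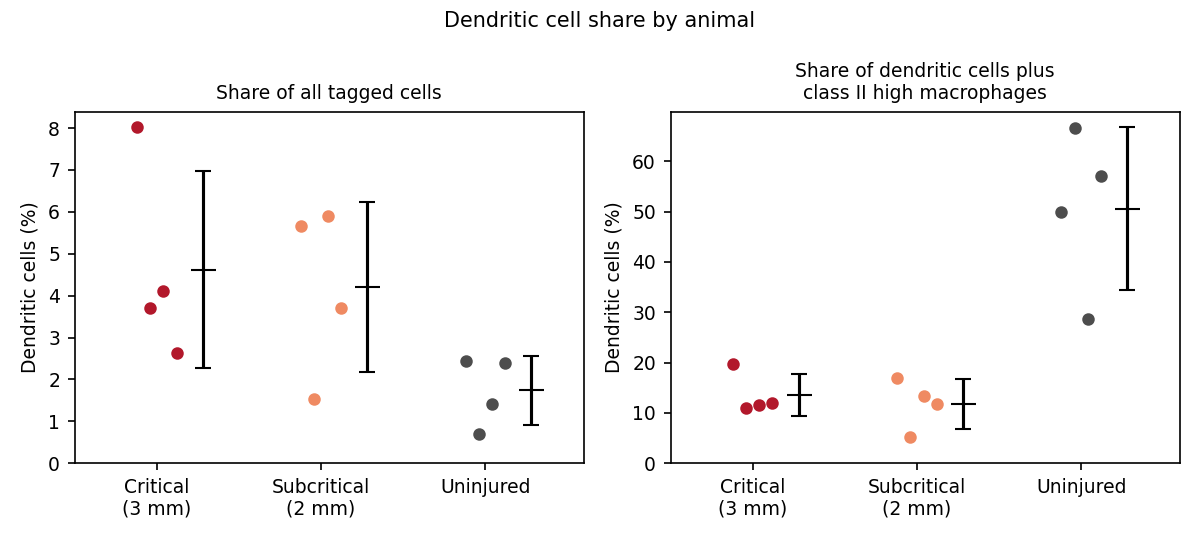
Share of dendritic cells in each animal, in percent of all hashtagged cells (left) and of dendritic cells plus class II high macrophages (right). Points are the 4 animals of a group and bars the mean ± SD. The uninjured animals are the lowest group on the left (0.708% to 2.44%) and the highest on the right (28.6% to 66.7%).

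Among antigen-presenting cells the order was the opposite. Of dendritic cells plus class II high macrophages, dendritic cells were 19.6%, 10.9%, 11.6% and 11.9% in critical animals, 16.9%, 5.10%, 13.3% and 11.8% in subcritical animals, and 50%, 66.7%, 28.6% and 57.1% in uninjured animals. No injured animal reached the uninjured range. The uninjured values rest on 2, 6, 7 and 7 cells per animal. The means were 13.5% ± 4.09 in critical and 50.6% ± 16.2 in uninjured animals, and 11.8% ± 4.93 in subcritical animals (SD, n = 4 each; exact permutation p = 0.0286 for each injured group against uninjured, adjusted 0.0857). Depth moved with this result, and with every cell thinned to 500 UMIs the library shares were 7.27%, 6.62% and 38.5% in critical, subcritical and uninjured muscle.

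The dendritic cells were split by the genes of the rule into mature cells (Ccr7 detected), cDC1-type cells (otherwise Xcr1 or Clec9a), cDC2-type cells (otherwise Cd209a) and unassigned cells. In the critical library 8 were mature, 8 cDC1-type, 17 cDC2-type and 19 unassigned. The subcritical library had 4, 7, 19 and 21 of these, and the uninjured library 0, 3, 8 and 5. Mature cells were 15.4% of critical (exact interval 6.88 to 28.1) and 7.84% of subcritical dendritic cells (2.18 to 18.9), while 0 of 16 uninjured cells held a Ccr7 UMI, which by a floor of 3 counts allows a share of cells with a UMI of up to 18.8% (upper end of the exact interval 20.6). By animal, mature cells were 27.3%, 20%, 10% and 10% in critical animals and 7.14%, 20%, 0% and 12.5% in subcritical animals. The ranges overlapped (mean 16.8% ± 8.41 and 9.91% ± 8.45, SD, n = 4 each; exact permutation p = 0.314, adjusted 0.566). The cDC1-type share averaged 13.9% ± 11.8 in critical and 13.2% ± 11.97 in subcritical animals (exact permutation p = 0.886). The cDC2-type share averaged 29.1% ± 10.6 and 30.6% ± 22.3 in the same order (exact permutation p = 0.943). Neither share differed beyond the spread between animals. Thinned to 500 UMIs, cDC2-type cells were 15.4% of critical, 29.4% of subcritical and 25% of uninjured dendritic cells, and 33 of 52 critical cells then held none of the subset genes.

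**Figure D2:**
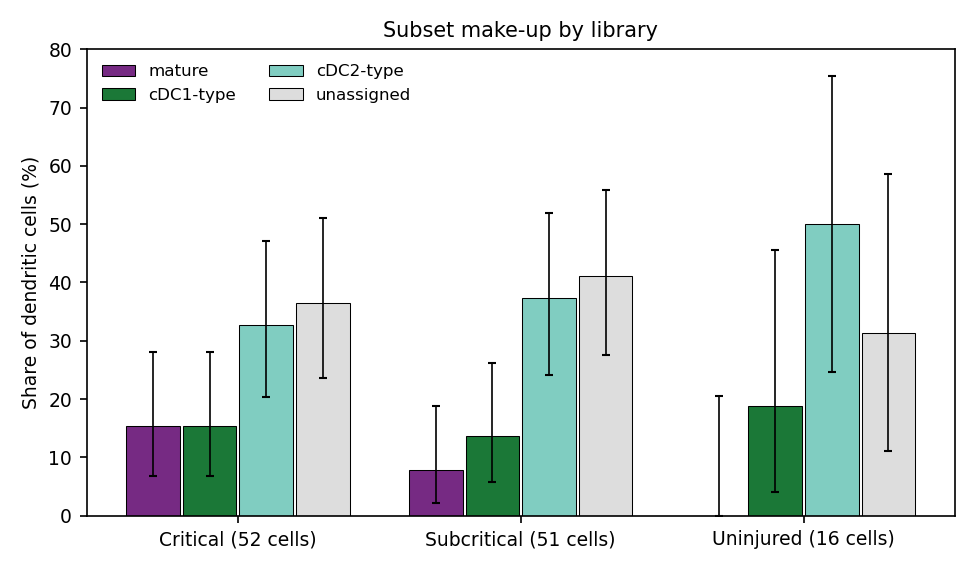
Share of each subset among the dendritic cells of each library, in percent, with exact 95% intervals for counting error. The mature bar is 15.4% in the critical library, 7.84% in the subcritical library and at 0 in the uninjured library.

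Many list genes that took no part in the split differed between the subsets, which describes the cells of all 3 libraries together. The 12 mature cells held Ccl5, a chemokine for T cells and monocytes, at 7040 CPM, against 0 in cDC1-type, 83 in cDC2-type and 10 in unassigned cells. Fscn1 stood at 1847 CPM in mature cells and at 0, 0 and 21 CPM in the other subsets. Each of Ccl5 and Fscn1 was detected in 6 of the 12 mature cells. Ccl22, which draws regulatory T cells, was seen in mature cells alone, with 10 UMIs in 4 cells. The 18 cDC1-type cells led in Naaa, a lysosomal amidase of cDC1, with 1642 CPM against 0 in mature, 71 in cDC2-type and 761.7 in unassigned cells. Itgae, which encodes CD103, stood at 241 CPM in cDC1-type cells and was at 0 in mature and cDC2-type cells. Wdfy4, required for cross-presentation by cDC1, was at 482 CPM in cDC1-type cells and 119 CPM in cDC2-type cells. The 44 cDC2-type cells were the richest in Clec10a and Mgl2, 2 lectins that bind galactose-type sugars, with 569 and 462 CPM, against 462 and 404 CPM in mature cells and 44 and 0 CPM in cDC1-type cells. In mature cells all 7 Mgl2 UMIs came from 1 cell. The cDC2-type cells also held the chemokines Ccl6 (984 CPM) and Ccl9 (261 CPM) and the cytokine Il1b (522 CPM), which was at 0 in cDC1-type cells. Cst3, a protease inhibitor abundant in dendritic cells, ran the other way, with 34875 CPM in cDC1-type and 5358 CPM in cDC2-type cells. Other list genes did not peak in the subset of their list. Batf3 was at 346 CPM in mature and 285 CPM in cDC1-type cells, Rab7b of the cDC1 list at 175 CPM in cDC1-type and 313 CPM in unassigned cells, and Cbfa2t3 of the cDC2 list at 328 CPM in cDC1-type and 202 CPM in cDC2-type cells. The unassigned cells carried Naaa, Itgae and Wdfy4 at levels between those of the cDC1-type and cDC2-type cells.

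**Figure D3:**
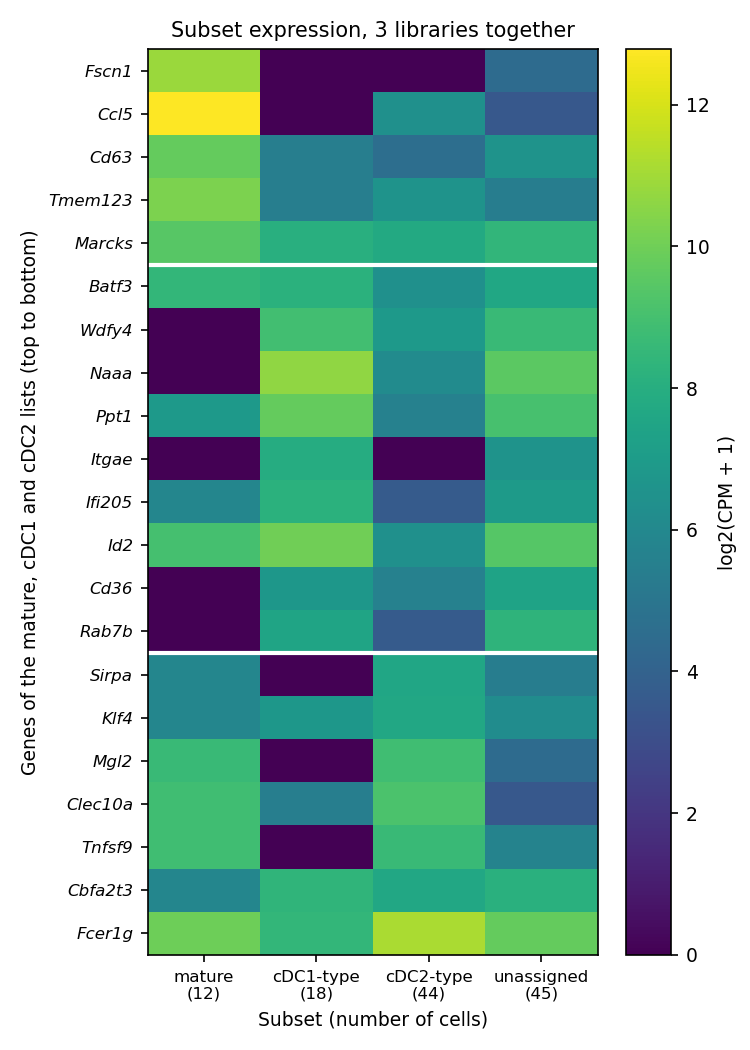
Level of the 21 genes of the mature, cDC1 and cDC2 lists with at least 20 UMIs and no part in the rule, as log2(CPM + 1) of summed counts in each subset. Read along a row: Ccl5 and Fscn1 peak in mature cells, Naaa and Itgae in cDC1-type cells, and Clec10a and Mgl2 in cDC2-type cells.

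Surface protein divided along the same lines in the counts per cell. CD24 averaged 3.17 counts in cDC1-type cells, against 0.333 in mature, 0.386 in cDC2-type and 1.98 in unassigned cells. CD103 averaged 1.50 counts in cDC1-type cells and 0.318 in cDC2-type cells. CD11b showed the reverse, with 0.278 counts in cDC1-type and 3.09 in cDC2-type cells. I-A/I-E was highest on mature cells, at 15.3 counts, against 6.06 in cDC1-type and 7.20 in cDC2-type cells. In counts per cell, the antibodies to XCR1 and to CD370 (CLEC9A) did not follow the transcripts. They had 1.11 and 1.06 counts in cDC1-type cells and 1.09 and 1.70 in cDC2-type cells. Such counts are not scaled to the antibody total per cell, which was lower in cDC1-type than in cDC2-type cells. CD172a averaged 5.45 counts in cDC2-type cells, but 1 critical cell held 227 of the 240 counts.

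Set against class II high macrophages of the same animals, dendritic cells had more CD24, CD103, I-A/I-E and IL-23R relative to their antibody total. On the same scale they had less Gr-1, CD64, CD39, CD14, CD11b and CD16/32. The comparison used counts summed over each class in 7 injured animals with at least 10 cells of each, 4 critical and 3 subcritical, with the animal as a block. Of 138 antibodies tested, 10 passed an adjusted p of 0.05 (7.25%) in edgeR's quasi-likelihood test with Benjamini-Hochberg adjustment, 4 higher and 6 lower. Scaled to the total antibody count alone, without the TMM factors of the main fit, 6 were higher and 3 lower, and CD11b, CD39 and CD16/32 lost their call. Folds are relative to the TMM-scaled antibody total of a class, and dendritic cells had fewer counts per cell, with medians of 72 and 89 per cell in the critical and subcritical libraries, against 102 and 140 in macrophages. A positive fold therefore need not mean more counts per cell.

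As CPM of all antibody counts (antibody CPM), CD24 was at 5797, 10192, 31439 and 13643 in the dendritic cells of the 4 critical animals and at 18750, 10638 and 17857 in those of the 3 subcritical animals. In their macrophages it was at 869, 1266, 1413 and 2070.4 in critical and at 2261, 1413 and 1234 in subcritical animals. Dendritic cells were above macrophages in 7 of 7 animals, and their lowest value lay above the highest macrophage value. The log2 fold was 3.11 ± 0.254 (SE, edgeR adjusted p = 2.42e-10). CD103 was higher in 7 of 7 animals by 1.09 ± 0.263 on the log2 scale (edgeR adjusted p = 0.00865). I-A/I-E was higher in 6 of 7 animals by 0.83 ± 0.216 (edgeR adjusted p = 0.0114), in 2 classes that had to pass the same minimum of class II transcripts. IL-23R, the receptor subunit for interleukin 23, was higher in 6 of 7 animals by 0.62 ± 0.178 (edgeR adjusted p = 0.0243).

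Among the antibodies that were lower, CD64 stood at 16425, 11391, 15719.5 and 17735 antibody CPM in dendritic cells of critical animals and at 21094, 14507 and 15714 in those of subcritical animals. Their macrophages were at 14863, 28021, 29478 and 31665 in critical and at 26856, 30832 and 22471 in subcritical animals. CD64 was lower in 6 of 7 animals, with a log2 fold of -0.92 ± 0.184 (edgeR adjusted p = 0.00147). Per cell this was 1.42 ± 0.244 counts in dendritic cells and 4.42 ± 1.06 in macrophages (SD over 7 animals). Gr-1, an epitope of Ly6G and Ly6C, fell by 2.08 ± 0.392 (edgeR adjusted p = 0.00147, lower in 6 of 7 animals). CD14 fell by 1.70 ± 0.428 (adjusted 0.0111, 6 of 7) and CD39, an enzyme that breaks down extracellular ATP, by 0.76 ± 0.177 (adjusted 0.00765, 7 of 7). CD11b fell by 0.90 ± 0.227 (adjusted 0.0114, 5 of 7) and CD16/32, the low-affinity Fc receptors, by 0.69 ± 0.197 (adjusted 0.0237, 6 of 7). CD24 and CD64 passed under all 15 alternatives run, while I-A/I-E lost its call under 5 and IL-23R under 6 of them. Without critical animal 2, CD103 and CD14 had an adjusted p of 0.0584 each and I-A/I-E of 0.0723. Without critical animal 4, CD14 had an adjusted p of 0.0863, I-A/I-E of 0.115 and IL-23R of 0.120. IL-23R also lost its call without subcritical animal 3 (adjusted 0.0706) or 4 (adjusted 0.0999). CD11b lost its call without critical animal 2 or 4 or any 1 of the 3 subcritical animals (adjusted 0.0584 to 0.118), and CD16/32 without critical animal 2 or 4 or subcritical animal 1 or 4 (adjusted 0.0723 to 0.127).

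Several of these antibodies were sparse. The 3 isotype controls averaged 0.192, 0.0719 and 0.354 counts per cell in critical, subcritical and uninjured dendritic cells. CD14 averaged 0.12 ± 0.0846 and Gr-1 0.176 ± 0.114 counts per dendritic cell over the 7 injured animals, which lies within that range, against 0.671 ± 0.237 and 1.45 ± 1.85 per macrophage. CD11b and CD39 stood above the isotype controls, with 1.36 ± 0.455 and 1.55 ± 0.352 counts per dendritic cell, against 4.14 ± 1.14 and 4.17 ± 0.588 per macrophage.

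Several antibodies that mark dendritic cells elsewhere did not pass. XCR1 had a log2 fold of 0.56 ± 0.192 (edgeR adjusted p = 0.0759). It passed under 5 of the alternatives, with adjusted p of 0.0401 without antibody aggregates, 0.0383 without cells of fibroblast or endothelial UMIs, 0.0341 with the total count alone, 0.0178 without critical animal 3 and 0.038 without subcritical animal 1. CD135 (the FLT3 protein) had a fold of 0.53 ± 0.276 (adjusted 0.362) and CD11c of 0.52 ± 0.306 (adjusted 0.455). F4/80, a macrophage protein, had a fold of -1.02 ± 0.345 and was lower in 7 of 7 animals (adjusted 0.0759, and 0.0452 without antibody aggregates). CD172a, CD206, CD370 and CD301b lay between -0.81 and 0.22, with adjusted p from 0.239 to 0.693; of these CD172a passed with cells of at least 1000 gene UMIs (adjusted 0.00626) and without critical animal 1 (adjusted 0.0301).

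**Figure D4:**
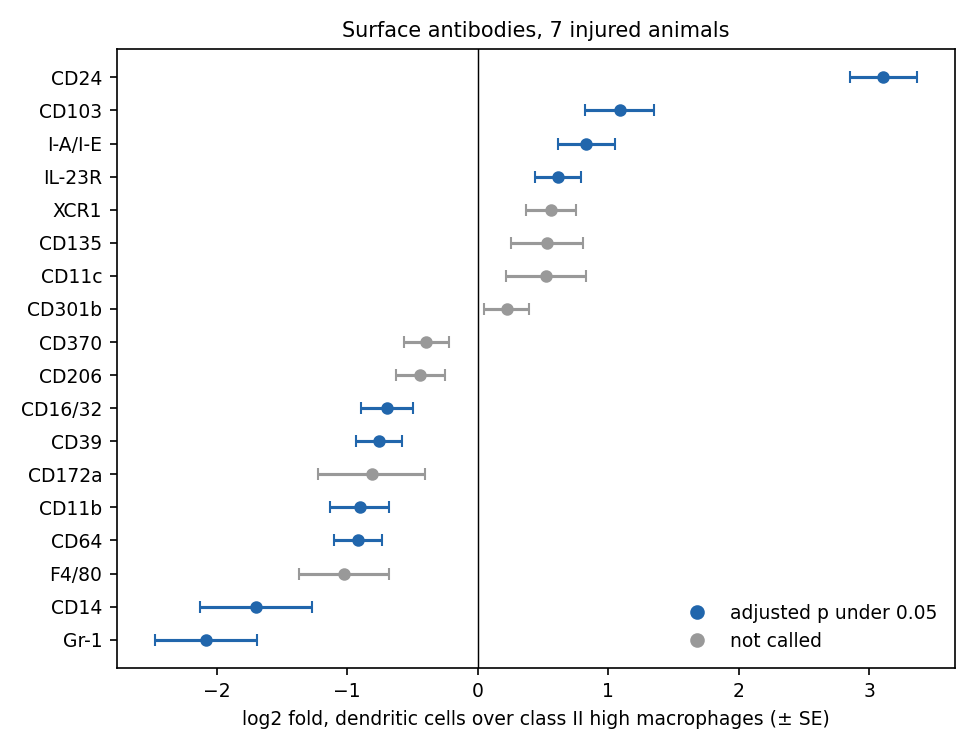
Log2 fold of 18 antibodies in dendritic cells over class II high macrophages, fitted over 7 injured animals, with standard errors. Blue points passed an adjusted p of 0.05 and grey points did not; CD24 lies far to the right at 3.11 and Gr-1 furthest to the left at -2.08.

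The transcripts of these classes are given as a description, since both were chosen by genes. Of 1403 genes with at least 100 CPM in either class, 520 (37.1%) were higher and 596 (42.5%) lower in the dendritic cells of both injured libraries. Cd24a, the gene of CD24, stood at 320 CPM in critical dendritic cells, against 11.5 CPM in critical macrophages. Itgae, the gene of CD103, had 12 UMIs in critical and 8 in subcritical dendritic cells and was at 0 in the critical macrophages. The class II presentation genes H2-Oa and H2-Ob also led, with 279 and 145 CPM in critical dendritic cells, against 1.28 CPM each in critical macrophages. Cst3 was at 22455 and 22860 CPM in critical and subcritical dendritic cells, against 3761 and 3846 CPM in macrophages. At the other end, Apoe stood at 320 and 157 CPM in dendritic cells of the 2 injured libraries and at 20550 and 23776 CPM in macrophages. Trem2 and Gpnmb, genes of lipid-laden macrophages, had 3 and 4 UMIs in critical dendritic cells and none in subcritical ones.

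Critical and subcritical dendritic cells were compared to find what differed with the size of the defect. Gene UMIs were summed over the tagged dendritic cells of each animal with at least 10 of them, which left 4 critical and 3 subcritical animals with 10 to 16 cells each; the second subcritical animal, with 5 cells, did not enter. Of 248 genes tested, 7 passed an adjusted p of 0.05 (2.82%), of which 6 encode ribosomal proteins. The ribosomal genes tested numbered 76. None of the 9 class II presentation genes, 9 class I presentation genes, 5 shared dendritic cell genes or 3 interferon-stimulated genes that could be tested passed.

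Rps28 stood at 2421, 1709, 2000 and 1444 CPM in critical animals and at 3882, 4547 and 4651 CPM in subcritical animals. Rps29 stood at 2210, 2372, 2536 and 1872 CPM in critical animals and at 4329, 4670 and 5013 CPM in subcritical animals. No critical animal reached the lowest subcritical one for either gene. The log2 folds were -1.23 ± 0.173 for Rps28 (SE, edgeR adjusted p = 2.79e-05) and -1.07 ± 0.158 for Rps29 (edgeR adjusted p = 3.15e-05). Rpl38, Rpl37a and Rps21 fell by 0.84 ± 0.187, 0.71 ± 0.159 and 0.76 ± 0.173 (edgeR adjusted p = 0.00741 for each), also without overlap. Since the genes were called in these same animals, the lack of overlap is no further support.

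Rps24 ran the other way, at 1842, 1535, 2000 and 1765 CPM in critical animals and at 796, 1045 and 620 CPM in subcritical animals. Its log2 fold was 1.09 ± 0.257 (edgeR adjusted p = 0.00922). Serf2, which encodes a small protein linked to protein aggregation, was at 1842, 1954, 2683 and 2300.1 CPM in critical and at 1095, 1229 and 1395 CPM in subcritical animals (log2 fold 0.78 ± 0.217, edgeR adjusted p = 0.0433). Rps28 and Rps29 kept their call in 15 of 15 alternatives, Rps24 in 11 and Serf2 in 4. Rps24 lost it without subcritical animal 1 (adjusted 0.105) or 4 (adjusted 0.117), and Rps21 without subcritical animal 1 (adjusted 0.116). Rpl37a lost it without subcritical animal 3 (adjusted 0.115), and Rpl38 without subcritical animal 3 (adjusted 0.0755) or 4 (adjusted 0.093). Serf2 lost it without any 1 animal except critical animal 1 (adjusted 0.0645 to 0.432). Ribosomal protein genes have many near-identical copies in the genome, and the part of these copies in the counts was not tested.

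**Figure D5:**
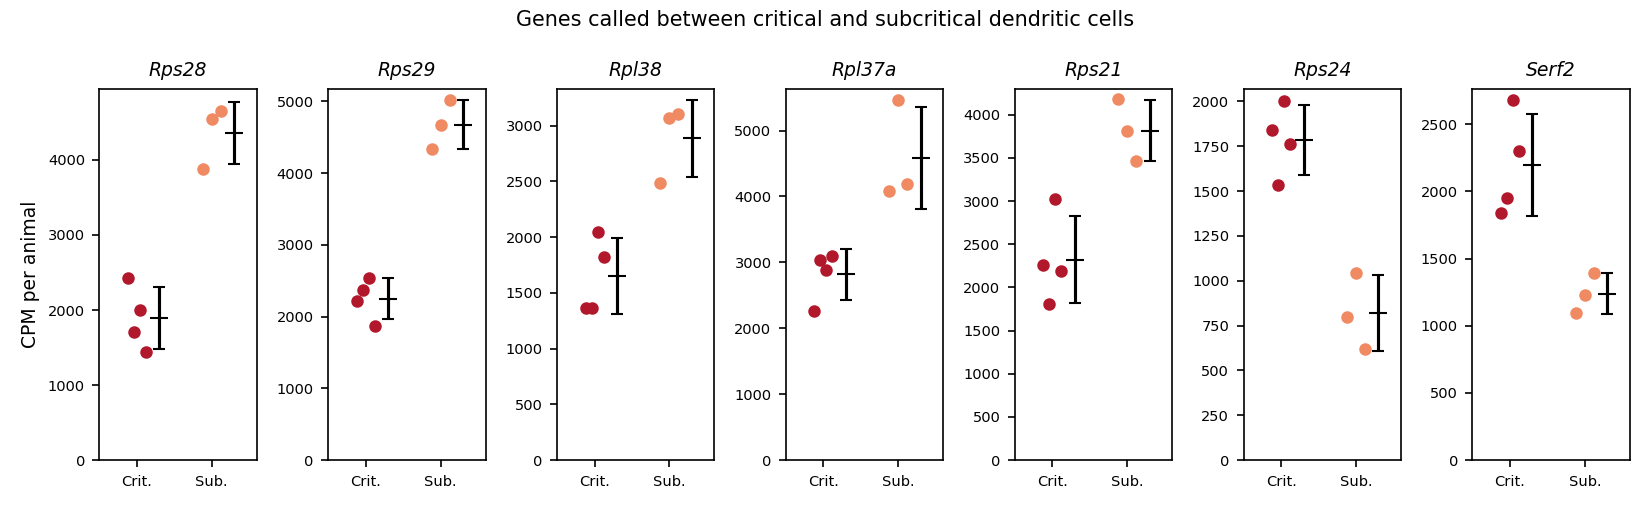
CPM of the 7 genes called between critical and subcritical dendritic cells, 1 point per animal with mean ± SD beside them. The 4 critical and 3 subcritical animals do not overlap for any of the 7 genes, 5 lower and 2 higher in critical animals. The genes were called in these same animals, so the lack of overlap adds no support to the calls.

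Macrophages and endothelial cells showed the ribosomal differences too. Between the critical and subcritical libraries the log2 fold of Rps28 was -1.16 in dendritic cells, -1.11 in class II high macrophages and -1.13 in endothelial cells, and that of Rps29 was -0.94, -1.34 and -1.37. Rpl38, Rpl37a and Rps21 were also lower in all 3 classes, and Rps24 was higher, by 1.23, 0.83 and 0.86. Serf2 was at 0.75 in dendritic cells, -0.05 in macrophages and -0.03 in endothelial cells, a difference between classes that was not tested. Against the uninjured library, Rps27 had log2 folds of -2.80, -2.67 and -2.59 in the critical library and of -3.07, -2.83 and -2.63 in the subcritical library, in the same 3 classes. Since each group was 1 library, the group and the library cannot be told apart for these genes.

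Surface protein showed no called difference between critical and subcritical dendritic cells. Of 101 antibodies tested in the same 7 animals, 0 passed in edgeR's quasi-likelihood test (0%), and 2 had an unadjusted p under 0.05. The leading antibody was CD1d, a presenter of lipid antigens, at 14493, 4197, 6046 and 0 antibody CPM in critical animals and at 1563, 967 and 2143 in subcritical animals (log2 fold 1.92 ± 0.641, edgeR adjusted p = 0.306). The first 3 critical animals lay above every subcritical one and the fourth below all of them. These values rest on few counts. Over all 3 libraries, mature cells held 14 CD1d counts in 2 cells, 9 of them in 1 cell. The cDC1-type, cDC2-type and unassigned cells held 3, 9 and 12. CD1d passed without the fourth critical animal (adjusted 0.0396) and with animals of at least 5 cells (adjusted 0.0470). Per the labels, the animals of a group were pooled before staining with the panel, so staining and group cannot be told apart.

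Library sums over all dendritic cells extend these comparisons to low genes, with intervals for counting error and no test. Between the critical and the subcritical library, 1154 of 2436 genes at a mean of at least 50 CPM were higher in critical cells (47.4%), with a median log2 fold of -0.02. Of 13 genes of the mature migratory list, 10 were higher, with a median of 1.02. The list holds Ccr7, a gene of the rule, and without it 9 of 12 were higher (median 0.996). Ccl5 had 129 UMIs in 8 critical cells, of which 1 cell held 45, and 1 UMI in the subcritical library, a ratio of 101.5 with a counting interval of 17.9 to 4041. By animal, Ccl5 stood at 3526, 593, 0 and 2407 CPM in critical animals, while the subcritical animals were at 0 except 51.7 CPM in the fourth. The third critical animal therefore lay with the subcritical ones, and the animal fit gave a log2 fold of 6.01 ± 2.34 (edgeR adjusted p = 0.527). Ccl5 passed only with the hashtag number as a block (adjusted 5.51e-20) and with cells of at least 1000 UMIs (adjusted 0.0188).

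Other mature genes had smaller sums. Fscn1 had 27 UMIs in 5 critical and 7 UMIs in 3 subcritical cells (ratio 3.04, counting interval 1.29 to 8.26), and 1 critical cell held 17 of the 27. Tmem123, which encodes a membrane protein, had 26 UMIs in 11 critical and 4 UMIs in 4 subcritical cells (ratio 5.12, 1.77 to 20.2). Ccl22 went against them, with 2 UMIs in critical and 8 in subcritical cells (ratio 0.197, 0.0204 to 0.986), and 1 subcritical cell held 6 of the 8. Il12b, a subunit of interleukins 12 and 23, had 9 UMIs, all in 1 critical cell. Beyond this list, Rala, a small GTPase, had 30 UMIs in critical and 6 in subcritical cells (ratio 3.94, 1.61 to 11.6). Fabp4, with 48 against 9 UMIs, is also a marker of endothelium, whose list summed to 919 CPM in critical, 315 CPM in subcritical and 755 CPM in uninjured dendritic cells; its part in the result was not tested.

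Collagen sums were lower in the critical library, and 1 cell held most of the subcritical UMIs. Col1a1 had 13 UMIs in critical and 309 in subcritical dendritic cells, and 1 cell of the second subcritical animal held 274 of the 309. That cell had 7138 UMIs, 562 of them from fibroblast markers. The fibroblast list summed to 630 CPM in critical, 8346 CPM in subcritical and 741 CPM in uninjured dendritic cells. With cells of 10 or more fibroblast or endothelial UMIs left out, 3 in each injured library, the log2 fold of Col1a1 was -0.66 in place of -4.91, that of Col1a2 -1.02 in place of -4.53, and that of Col3a1 0.92 in place of -3.43. Col1a1 and Col1a2 stayed lower and Col3a1 turned.

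For class II presentation, 12 of 17 genes were higher in critical cells (median 0.05), and for class I presentation 11 of 21 (median 0.06). The cDC1 list had 8 of 15 genes higher (median 0.02) and the cDC2 list 3 of 10 (median -0.26). These lists hold genes of the rule. Without them the counts were 11 of 14 for class II (median 0.09), 7 of 13 for cDC1 (median 0.02) and 3 of 9 for cDC2 (median -0.19). Interferon-stimulated genes were higher for 7 of 14 (median 0.08). Costimulation and checkpoint genes were higher for 2 of 7 (median -0.02). Of the cell cycle genes, 1 of 14 was higher, with a median of -0.65. Top2a, the mitotic topoisomerase, had 3 UMIs in critical and 16 in subcritical cells, and Ube2c, a ubiquitin enzyme of mitosis, had 10 and 39 UMIs, of which 1 critical cell held 8 and 1 subcritical cell 17.

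Injured and uninjured dendritic cells were compared only as library sums, because no uninjured animal reached the chosen minimum of 10 tagged cells. The 4 uninjured animals had 1, 4, 2 and 4 of them. In the critical library 1093 of 2589 genes were higher than in the uninjured library (42.2%, median -0.17), and in the subcritical library 1143 of 2584 (44.2%, median -0.12); these comparisons share the uninjured cells. The mature list was higher for 11 of 11 genes in the critical library (median 3.15, or 1.90 with genes at 0 set to their bound of 3 counts) and for 4 of 5 in the subcritical library (median 1.65, or 1.28 at the bound). Of these genes 5 of the 11 and 2 of the 5 had no uninjured UMI, so they could enter the count only through the injured library, and the counts support no direction of the list. Ccl5 was at least 31.2-fold higher in critical cells, Fscn1 at least 6.52-fold and the tetraspanin gene Cd63 at least 4.83-fold, each with 0 uninjured UMIs. The uninjured sum held 70185 UMIs of 16 cells, against 96817 UMIs of 52 critical cells.

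Il1b and several interferon-stimulated genes had larger sums after injury, while the cytokine and growth factor list as a whole had 2 of 4 genes higher in the critical library (median -0.14) and 5 of 6 in the subcritical library (median 1.98, or 1.08 at the bound). Of the 6 genes, 2 had no uninjured UMI, so they could be counted only through the subcritical library and support no direction. Il1b had 32 UMIs in critical, 19 in subcritical and 2 in uninjured dendritic cells, a ratio of 11.6 (2.96 to 99.9) for critical and 8.75 (2.11 to 77.5) for subcritical against uninjured; 1 critical cell held 14 of the 32. Isg15, a ubiquitin-like interferon target, had 32, 10 and 2 UMIs in the same 3 libraries, and the subcritical ratio of 4.61 had an interval that reached 0.981. Fabp5, a fatty acid carrier, had 42, 32 and 6 UMIs, with ratios of 5.07 (2.15 to 14.6) and 4.91 (2.03 to 14.4), and 1 cell held 20 of the critical and 1 cell 16 of the subcritical UMIs. Basp1, a membrane-bound signalling protein, had 28, 17 and 1 UMIs, with ratios of 20.3 (3.36 to 830) and 15.7 (2.45 to 654). The chemokine Cxcl16 had 20 UMIs in critical, 6 in subcritical and 3 in uninjured cells (critical against uninjured 4.83, 1.43 to 25.4). The interferon list had 9 of 13 genes higher in the critical library (median 0.53) and 8 of 11 in the subcritical library (median 0.61).

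Class I presentation genes were higher for 14 of 20 in the critical library (median 0.60) and 17 of 22 in the subcritical library (median 0.68). Psme2, a proteasome activator subunit, had log2 folds of 1.94 and 1.58, and Psmb9, an immunoproteasome subunit, of 1.02 and 0.81. Class II presentation genes had medians of 0.38 and 0.19, with 12 of 17 and 10 of 16 higher. The cDC1 list was higher for 10 of 13 genes in the critical library (median 0.76) and 12 of 14 in the subcritical library (median 0.45). The cDC2 list was higher for 2 of 11 (median -0.85) and 4 of 11 (median -0.05). Both directions depended on the cells included. Without the 5 deepest cells of each library the cDC1 list was higher for 4 of 11 genes in the critical library (median -0.23), and among cDC2-type cells alone the cDC2 list was higher for 8 of 13 genes in each injured library (medians 0.36 and 0.52). Without the genes of the rule, class II was higher for 9 of 14 and 7 of 13 genes, cDC1 for 8 of 11 and 10 of 12, and cDC2 for 2 of 10 and 4 of 10, in the critical and subcritical libraries. Of the cDC1 genes, 1 in the critical and 2 in the subcritical comparison had no uninjured UMI. The same held for 1 class II gene in the critical and 1 cDC2 gene in the subcritical comparison. Such genes could be counted only through the injured library and support no direction. Naaa stood at 888, 564 and 356 CPM in the critical, subcritical and uninjured libraries.

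Several genes with lower sums after injury rested on few uninjured cells. Lyz1, a lysozyme gene, and Retnla, a gene of alternatively activated macrophages, had 167 and 243 uninjured UMIs in 1 cell each. Lyz2, the myeloid lysozyme, was spread more widely, with 143 UMIs in 38 critical, 93 UMIs in 28 subcritical and 534 UMIs in 14 uninjured cells, 46.6% of the last in 1 cell. Its ratio was 0.194 (0.16 to 0.234) for critical and 0.16 (0.127 to 0.2) for subcritical against uninjured. Serinc3 had 2 UMIs in critical, 12 in subcritical and 25 in uninjured cells, the last spread over 10 cells (critical ratio 0.058, 0.00666 to 0.233). The chemokine Ccl6 stood at 310, 223 and 855 CPM, with 39 of its 60 uninjured UMIs in 1 cell, and the cytokine Tgfb1 at 227, 131 and 513 CPM, in the critical, subcritical and uninjured libraries. The monocyte list was lower in both injured libraries for every gene compared, 5 in the critical and 4 in the subcritical comparison, and summed to 713, 774 and 1724 CPM in critical, subcritical and uninjured dendritic cells; its part in these differences was not tested.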

How the data were processed

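The deposited matrices hold raw UMI counts per gene and antibody, 1 matrix per library, made with cellranger 6.0.2 per the file headers. The tools bcl2fastq and Cell Ranger and the build GRCm39 (mm39) are given in the submitters' processing notes. Per the labels, muscle was dissociated with collagenase II plus dispase II and freed of red blood cells, cells carried 1 hashtag per animal, and libraries followed the 10x 5' v2 assay. A matrix covers 32285 genes, 4 hashtags and a panel of 138 antibodies (3 are isotype controls).

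Hashtags were called with a 2-component negative binomial mixture at a posterior of 0.5, and cells with several hashtags entered no animal. No doublet caller was run. Sums per animal with at least 10 cells were tested with edgeR 4.0.16 in R 4.3.3 (TMM, filterByExpr, robust quasi-likelihood fit, adjusted p under 0.05), after the step was tested on simulated data. DESeq2 1.42.0 was an alternative. Standard errors come from the F statistic. Library sums are CPM with a pseudocount of 1 CPM and exact binomial 95% intervals for counting error only; a count of 0 has a floor of 3 counts. Shares have Clopper-Pearson intervals. Exact permutation tests were two-sided.

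The members, gene lists and tests were chosen with earlier results of these data known. Genes beyond the lists were named by size: in the animal fit up to 15 each way past the threshold, in library sums up to 10 each way at 100 CPM or more whose interval excludes a log2 fold of 0.5, and against macrophages up to 15 each way. Not every gene this rule takes in library sums is described. Animals of a group shared 1 library and 1 staining, so differences between groups include differences between libraries. Same hashtag numbers in critical and subcritical animals did not pair samples: the correlations of their deviations were -0.0857, 0.0827 and 0.0779. Permutation p-values cannot go below 0.0286 with 4 animals per group.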

Additional observations from a re-analysis of the deposited data

Results flagged for a closer look

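In critical animal 1, dendritic cells were 19.6% of dendritic cells plus class II high macrophages, against 10.9% to 11.9% in the other critical animals. The gap to the nearest animal was 0.89 of the whole range of the 4, which set it apart from them. This was 1 of 23 groups examined in this way, and chance sets apart about 1 group in 20.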

How the results depend on the processing

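Of 263 alternative values for the main comparisons, 202 kept their direction and side of the threshold. Of 162 alternative values of gene lists, 150 did. The others for the main comparisons and lists are given here, and the cause was not tested unless the setting itself removes cells. Requiring 3 of the 8 genes gave library shares of 0.696% (critical) and 0.793% (subcritical), no C1q UMI 1.17% (critical), and thinning to 500 UMIs 0.633%, 0.724% and 0.228% (critical, subcritical, uninjured). Of Ptprc-positive barcodes the shares were 3.95%, 5.25% and 10.6%, with uninjured highest. Only dendritic cells with a Ptprc UMI entered these shares, 17 of 52 critical, 19 of 51 subcritical and 13 of 16 uninjured ones. The animal difference, critical minus subcritical, became -0.12 points with 3 genes and -0.38 with no C1q UMI (leaving out 1 animal, -0.72 to 1.08). Critical minus uninjured was 1.104 (exact p = 0.143) with 3 genes, 1.41 (exact p = 0.0857) with no C1q UMI and 2.35 (exact p = 0.171) with hashtags holding 70% of counts (leaving out 1 animal, 1.75 to 3.55), and subcritical minus uninjured 1.90 to 3.36 leaving out 1 animal, with an exact p of 0.0286 without subcritical animal 2. Without any 1 uninjured animal, the exact permutation p of critical minus uninjured rose to 0.0571. For the share among dendritic cells plus macrophages, critical minus subcritical was -0.00266 with no C1q UMI (leaving out 1 animal, -0.457 to 3.46). With 3 genes the differences from uninjured were -26.8 for critical (exact p = 0.143) and -27.1 for subcritical (exact p = 0.2). Leaving out 1 animal they were -44.4 to -31.7 for critical and -46.2 to -33.5 for subcritical. The exact permutation p rose to 0.0571 for critical without any 1 critical animal. For subcritical it rose to 0.0571 without any 1 subcritical animal.

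For cDC1-type shares critical minus subcritical was -0.28 with no C1q UMI, -2.85 with 1000 UMIs and -0.15 with 70% hashtags (leaving out 1 animal, -3.62 to 5.42). For cDC2-type shares it was 0.36 with a class II minimum of 10, 4.94 with 3 genes and 2.01 with 1000 UMIs (leaving out 1 animal, -11.7 to 4.98), and thinned to 500 UMIs the critical cDC2-type share was 15.4%. Genes called between critical and subcritical cells numbered 2 with DESeq2, 3 with only undetected genes removed, 4 with 1000 UMIs, and 4 to 8 leaving out 1 animal, with 4 without subcritical animal 1, 3 or 4. With the hashtag number as a replicate block 8 genes and 0 antibodies were called; the numbers do not pair the animals. Antibodies called between them numbered 1 with at least 5 cells per animal and 0 to 1 leaving out 1 animal. Against macrophages, the total antibody count alone called 6 antibodies higher and 3 lower, and 4 antibodies were called with 70% hashtags and 5 to 14 leaving out 1 animal, with 5 without critical animal 2 or 4. The mature list was higher in critical than in uninjured cells for 66.7% of genes with 3 genes required. Other lists gave these shares of genes higher. With 3 genes required, class I was 28.6% and cell cycle 38.5% (critical over subcritical), and cell cycle 33.3% (subcritical over uninjured). Without the 5 deepest cells, cDC1 was 36.4% and cell cycle 0% (critical over uninjured), and cell cycle 31.3% (subcritical over uninjured). In cDC2-type cells alone, cDC2 was 61.5% and cell cycle 9.09% (critical over uninjured), and cDC1 40% and interferon genes 100% (subcritical over uninjured). Cell cycle was 72.7% (critical over uninjured) without cells of several hashtags, and mitochondrially encoded genes 100% (critical over subcritical) with no C1q UMI. Col3a1 between critical and subcritical cells turned to 0.53 with no C1q UMI, 0.18 without the 5 deepest cells and 0.92 without cells of fibroblast or endothelial UMIs. Retnla between critical and uninjured cells turned to 7.85 without the 5 deepest cells and 7.66 without cells of fibroblast or endothelial UMIs. All 18 critical Retnla UMIs lay in 1 cell and all 243 uninjured ones in 1 cell, so the size of these Retnla folds depends on the pseudocount. Thinning, the 5-cell minimum, the removal of mixed cells, the removal of antibody aggregates between injured groups and the antibody replicate block were chosen after seeing the data.

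The gene and antibody fits between injured groups were not run with 3 genes, no C1q UMI, 70% hashtags, 20 cells per animal or cells with no UMI of Col1a1, Col3a1, Cdh5, Acta2, S100a8 and Cd3e, nor the macrophage comparison with 3 genes, since too few animals remained. With 10 to 16 cells per animal only 248 genes could be tested, so low genes, most of the subset lists among them, have no test.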
